A study of Mus musculus with 4 samples.

Results

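The Cyp3a subfamily of cytochrome P450 genes was read on 1-colour Agilent mouse arrays in fetal liver progenitors and in adult hepatocytes. The members were the 6 genes chosen by their name in the array annotation, Cyp3a11, Cyp3a13, Cyp3a16, Cyp3a25, Cyp3a41a and Cyp3a44. They were read by 8 of the 41174 distinct probes, and all 6 were among the 16422 genes that passed the filter on dim probes. CYP3A enzymes are heme proteins of the endoplasmic reticulum that insert an oxygen atom into steroids, bile acids and a wide range of drugs, taking electrons from P450 oxidoreductase. In the liver their genes are targets of the nuclear receptors PXR (Nr1i2) and CAR (Nr1i3), which bind foreign compounds and bile acids. Growth hormone secretion, which differs between male and female mice, also sets the level of several members in the adult liver.

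RNA from 2 samples of embryonic day 13 liver hepatoblasts (E13 hepatoblasts) was compared with RNA from 2 samples of liver hepatocytes taken at 8 weeks of age (adult hepatocytes). Both groups were of the strain C57BL/6NCr, and no treatment or genetic change was named for either. Hepatoblasts are the progenitors of hepatocytes and bile duct cells. The labels gave neither the sex of the mice nor how the cells were isolated, and they did not say that the 2 samples of a group came from different animals or litters. The p-values therefore rest on a spread between samples that may be technical, and 2 arrays per group limit the precision.

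Values are log2 processed signals minus the 75th percentile of their array, so that 0 is the level of that percentile. A probe counted as detected where the scanner software marked it well above background, which held for 23777 and 23049 probes on the E13 arrays and for 20040 and 19300 on the adult arrays. Over the genes that passed the filter on dim probes, arrays of a group correlated at r = 0.991 (E13) and r = 0.989 (adult). Over the same genes, arrays of different groups correlated at r = 0.727 to 0.742. The labelled cell types were checked against marker lists, summed as linear signal in units of the 75th percentile. Hepatoblast markers (6 genes) summed to 1876 and 2221 at E13 and to 4.12 and 4.28 in the adult, although Epcam was not well above background on any array. Hepatocyte markers (7 genes) summed to 1007 and 1059 at E13 and to 2351 and 2780 in the adult.

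The sequences before the transcription starts were set side by side because 4 of the members share them closely. The 250 bases upstream of each start were taken from RefSeq promoters on GRCm38.p6, where all 6 members matched and all lie on the minus strand of chromosome 5. Those of Cyp3a16, Cyp3a41a and Cyp3a44 were 90.9% to 94.4% identical to each other. Cyp3a11 was 76.2% identical to Cyp3a16 and 71.7% identical to Cyp3a41a and to Cyp3a44. Cyp3a13 and Cyp3a25 were 46.7% identical to each other, and each was at most 54.4% identical to any of the other members.

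**Figure D1:**
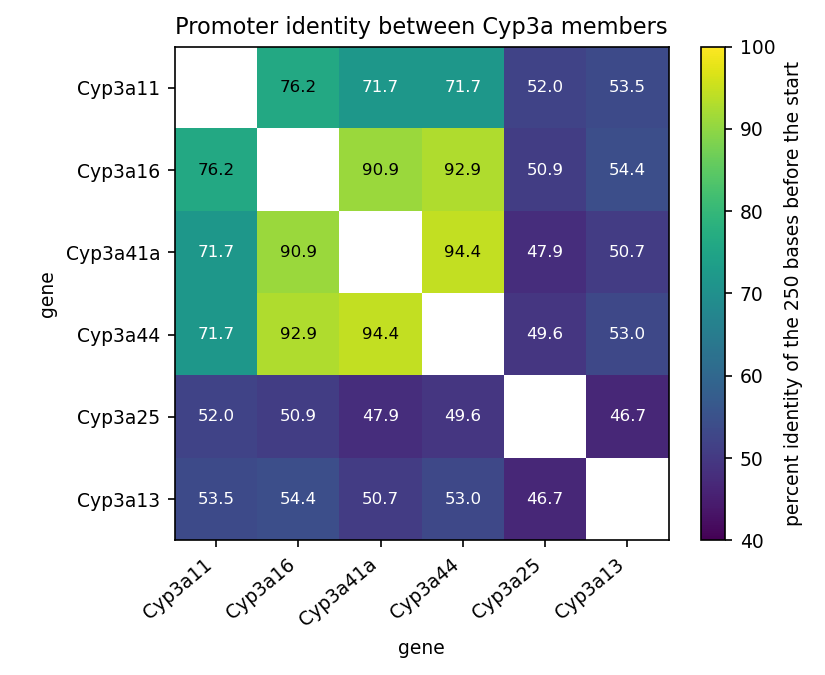
Percent identity of the 250 bases before the transcription start for each pair of the 6 Cyp3a genes, genes on both axes and identity as colour and number. Cyp3a16, Cyp3a41a and Cyp3a44 form a block of 90.9% to 94.4%, Cyp3a11 lies at 71.7% to 76.2% from that block, and Cyp3a25 and Cyp3a13 at 54.4% or less from every other member.

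The promoters of Cyp3a11, Cyp3a41a and Cyp3a25 are printed whole, to show a member of each type that had a match to the motifs below. Capitals mark matches on either strand to TGTTTAC (a forkhead element, the kind bound by FOXA factors), CAAAGTCCA and CAAAGGTCA (elements of the HNF4 type) and AGGTCA (a nuclear receptor half-site), the last of which overlaps CAAAGGTCA where both occur.
Cyp3a11, chr5:145879855-145880104, minus strand: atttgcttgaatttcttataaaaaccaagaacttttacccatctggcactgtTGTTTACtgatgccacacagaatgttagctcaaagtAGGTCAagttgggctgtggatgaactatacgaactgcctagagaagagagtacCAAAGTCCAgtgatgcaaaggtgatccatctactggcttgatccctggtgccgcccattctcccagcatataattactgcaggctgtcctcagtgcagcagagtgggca
Cyp3a41a, chr5:145720137-145720386, minus strand: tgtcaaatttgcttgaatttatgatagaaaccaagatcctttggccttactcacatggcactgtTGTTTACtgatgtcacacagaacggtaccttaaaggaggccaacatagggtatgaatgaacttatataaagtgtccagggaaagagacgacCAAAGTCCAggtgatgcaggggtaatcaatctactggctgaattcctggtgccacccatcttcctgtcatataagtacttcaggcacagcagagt
Cyp3a25, chr5:146009619-146009868, minus strand: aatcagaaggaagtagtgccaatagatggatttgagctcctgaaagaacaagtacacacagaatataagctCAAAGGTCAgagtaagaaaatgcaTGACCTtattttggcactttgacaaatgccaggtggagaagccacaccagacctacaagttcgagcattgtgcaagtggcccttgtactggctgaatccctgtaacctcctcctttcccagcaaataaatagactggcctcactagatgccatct
TGTTTAC stood in 4 of the 6 member promoters (Cyp3a11, Cyp3a16, Cyp3a41a and Cyp3a44) and in 3.09% of 27025 mouse promoters of the same length, 1 per gene. CAAAGTCCA stood in 3 of 6 (Cyp3a11, Cyp3a16 and Cyp3a41a) and in 0.381% of all promoters. CAAAGGTCA stood in Cyp3a25 alone of the 6 and in 0.407% of all, and AGGTCA in Cyp3a11, Cyp3a25 and Cyp3a44 and in 13.8% of all. No match to these 4 motifs lay in this window of Cyp3a13. The motifs were chosen after the sequences had been seen, and promoters that are near copies of each other do not hold a motif independently.

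The stretch around CAAAGTCCA is the place where Cyp3a44 parts from its near copies in that element. Counted from 1 at the 5′ end of the motif, Cyp3a44 carries the substitution C7A, and the other 3 genes carry none. Capitals mark the element or its changed form.
Cyp3a11, chr5:145879943-145879975: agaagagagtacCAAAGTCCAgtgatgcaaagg
Cyp3a16, chr5:145469802-145469834: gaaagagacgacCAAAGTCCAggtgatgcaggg
Cyp3a41a, chr5:145720211-145720243: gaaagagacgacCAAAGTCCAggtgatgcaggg
Cyp3a44, chr5:145805949-145805981: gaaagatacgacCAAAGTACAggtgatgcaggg
The element starts 109 bases before the start of transcription in Cyp3a11, 99 in Cyp3a16 and 95 in Cyp3a41a and Cyp3a44.

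Because several of these genes are near copies of each other, what each probe can tell apart bears on every value below. In the array annotation, on mm9, probes named for Cyp3a16, Cyp3a41a, Cyp3a44, Cyp3a11 and Cyp3a25 lie within 604.2 kb of chromosome 5, and the Cyp3a13 probe lies 7861.9 kb away from them on the same chromosome. The probes of Cyp3a13 and Cyp3a16 and both probes of Cyp3a44 listed RefSeq transcripts of their own gene only. These matches are those of the array annotation and were not checked against a genome. The Cyp3a41a probe also listed Cyp3a41b, its near-identical copy. The Cyp3a11 probe also listed Cyp3a41a, Cyp3a41b and Cyp3a44, so its signal may hold RNA of any of these 4 genes. Of the Cyp3a25 probes, the one starting at transcript base 1537 also listed Cyp3a59, and the one at base 900 also listed Cyp3a59 and Cyp3a57.

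The probe sequences below are ones on which the Cyp3a11 signal and part of the Cyp3a44 and Cyp3a25 signals rest. Each is printed whole, 60 bases in lower case.
Cyp3a11, transcript base 1104: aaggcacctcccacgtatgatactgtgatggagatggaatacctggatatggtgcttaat
Cyp3a44, transcript base 1507: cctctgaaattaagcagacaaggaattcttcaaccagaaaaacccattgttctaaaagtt
Cyp3a25, transcript base 900: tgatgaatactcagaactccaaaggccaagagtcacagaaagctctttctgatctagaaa
No pair of different Cyp3a probes shared a run of over 8 bases, so each probe reads a different stretch of sequence. This sets probes against each other only and cannot tell whether a probe also binds RNA of another Cyp3a gene, which was not tested.

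All 6 members were higher in adult hepatocytes. Each passed the test in the fit of limma across all genes (Benjamini-Hochberg adjusted p under 0.05), against 64.8% of all genes tested that were called in either direction and 32.1% called higher in the adult. With a fold of at least 2 also asked for, all 6 were still called, against 22.5% of all genes called higher in the adult. Their fitted log2 folds ran from 5.33 to 12.09 with a median of 7.76, also with Cyp3a25, undetected at E13, at its bound, beside a median of -0.01 over all genes tested. In each member the E13 values lay below both adult values, as held for 42.7% of all genes tested (85.8% did not overlap in either direction). These are RNA levels of whole cell samples, in which fewer cells that express a gene and less RNA per cell cannot be told apart.

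**Figure D2:**
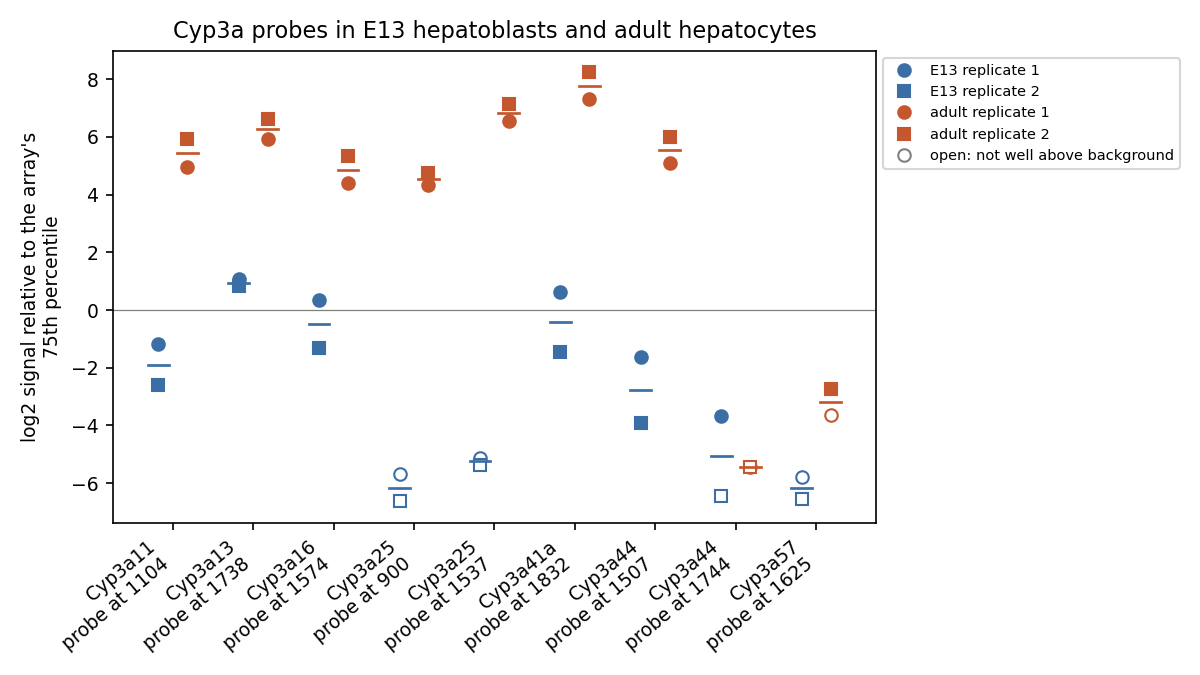
Log2 signal relative to the 75th percentile of the array (vertical axis) for the 9 probes named for Cyp3a genes (horizontal axis, with the first base of the probe in its transcript), E13 in blue and adult in orange, circles for replicate 1 and squares for replicate 2, bars for group means and open symbols where a probe was not well above background. The tested probes lie between 4.35 and 8.25 in the adult and between -6.62 and 1.06 at E13, and the second Cyp3a44 probe and the Cyp3a57 probe stay low on all 4 arrays.

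Cyp3a11 encodes the main drug-metabolising CYP3A enzyme of adult mouse liver and is induced through PXR. Its probe (chr5:146672058-146673925 on mm9, minus strand, a span longer than the probe) gave -1.17 and -2.61 in the E13 samples and 4.96 and 5.92 in the adult samples. Both adult samples lay far above both E13 samples, and the probe was detected on all 4 arrays. The group means were -1.89 ± 1.01 at E13 and 5.44 ± 0.681 in the adult (SD, n = 2 each), a log2 fold of 7.33 ± 0.590 (SE) or 161-fold, with an adjusted p of 0.000726 (limma). A fold at least as high was seen for 1.02% of the genes tested. Left without E13 replicate 1 the log2 fold was 8.05, and without E13 replicate 2 it was 6.62.

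Cyp3a13 lies outside the gene cluster and is known from the intestine as well as the liver. At chr5:138335318-138335377 its probe read 1.06 and 0.83 at E13 and 5.92 and 6.63 in the adult. The 2 E13 samples were close together, and it was the only member probe above the 75th percentile of the array in both. The means of 0.947 ± 0.164 and 6.28 ± 0.507 (SD, n = 2) gave a log2 fold of 5.33 ± 0.285 (SE), 40.2-fold, with an adjusted p of 0.000249 (limma). Leaving out any array kept the log2 fold between 4.97 and 5.69.

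Cyp3a16 is known as a CYP3A gene of the fetal and young mouse liver that stays on mainly in females. The probe at chr5:146197274-146197333 read 0.34 and -1.33 at E13 and 4.40 and 5.33 in the adult. Its E13 samples straddled the 75th percentile and lay apart from each other, while both adult samples were above them. With means of -0.498 ± 1.18 and 4.87 ± 0.658 (SD, n = 2), the log2 fold was 5.36 ± 0.649 (SE), 41.2-fold, and the adjusted p was 0.00238 (limma). It was 6.20 without E13 replicate 1 and 4.53 without E13 replicate 2.

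Cyp3a41a, together with its copy Cyp3a41b, is a female-predominant CYP3A gene of adult mouse liver. Its probe at chr5:146505792-146505851 read 0.62 and -1.45 at E13 and 7.30 and 8.25 in the adult. The E13 samples differed by more than the adult samples did, and neither came near the adult level. Means of -0.418 ± 1.46 and 7.77 ± 0.667 (SD, n = 2) gave a log2 fold of 8.19 ± 0.767 (SE), 292-fold, with an adjusted p of 0.00111 (limma). The log2 fold was 9.23 without E13 replicate 1 and 7.16 without E13 replicate 2.

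Cyp3a44 is the third female-predominant member of this near-identical trio. On the probe at chr5:146585954-146586013 it read -1.62 and -3.93 at E13 and 5.09 and 5.99 in the adult. This was the widest gap between E13 samples among the members, with a detected signal on all 4 arrays. The means were -2.78 ± 1.63 and 5.54 ± 0.639 (SD, n = 2), the log2 fold was 8.31 ± 0.832 (SE), 318-fold, and the adjusted p was 0.00135 (limma). Without E13 replicate 1 the log2 fold was 9.47, and without E13 replicate 2 it was 7.16.

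A second Cyp3a44 probe, 237 bases further along the transcript at chr5:146585717-146585776, did not show this difference. It read -3.68 and -6.43 at E13 and -5.44 and -5.45 in the adult. Only E13 replicate 1 was well above background, the groups overlapped, and the probe was not tested, its mean difference being -0.39. The call for Cyp3a44 therefore rests on the probe starting at transcript base 1507. With both probes averaged and no filter on dim probes, an alternative added after the data had been seen, the log2 fold was 3.96.

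Cyp3a25 is a CYP3A gene of adult mouse liver. Its promoter is unlike those of the other members but is 94.8% identical to that of Cyp3a59 and 88.9% identical to that of Cyp3a57, which are no members and hold the same CAAAGGTCA and AGGTCA matches. The probe at chr5:146789175-146789234 read -5.12 and -5.37 at E13, not well above background on either array, and 6.54 and 7.14 in the adult. It was the only member not detected at E13. Against the lowest detected signal of the E13 arrays, or the probe's own value where higher, the adult signal was at least 2799.7-fold higher. The measured means were -5.25 ± 0.181 and 6.84 ± 0.420 (SD, n = 2), and the adjusted p was 4.3e-05 (limma). The fitted log2 fold of 12.09 ± 0.255 (SE) rests on undetected E13 signals and is not a measured size.

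Its second probe, at chr5:146798525-146801518, read -5.69 and -6.62 at E13, again not well above background, and 4.35 and 4.75 in the adult. This made the adult signal at least 572-fold higher, and fitted over all tested probes its adjusted p was 7.1e-05 (limma). Both Cyp3a25 probes thus gave a bound in the same direction. The Cyp3a57 gene, which is no member but the only other Cyp3a name on the array, read -5.80 and -6.55 at E13 and -3.65 and -2.73 in the adult. It was well above background only in adult replicate 2 and was not tested.

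**Figure D3:**
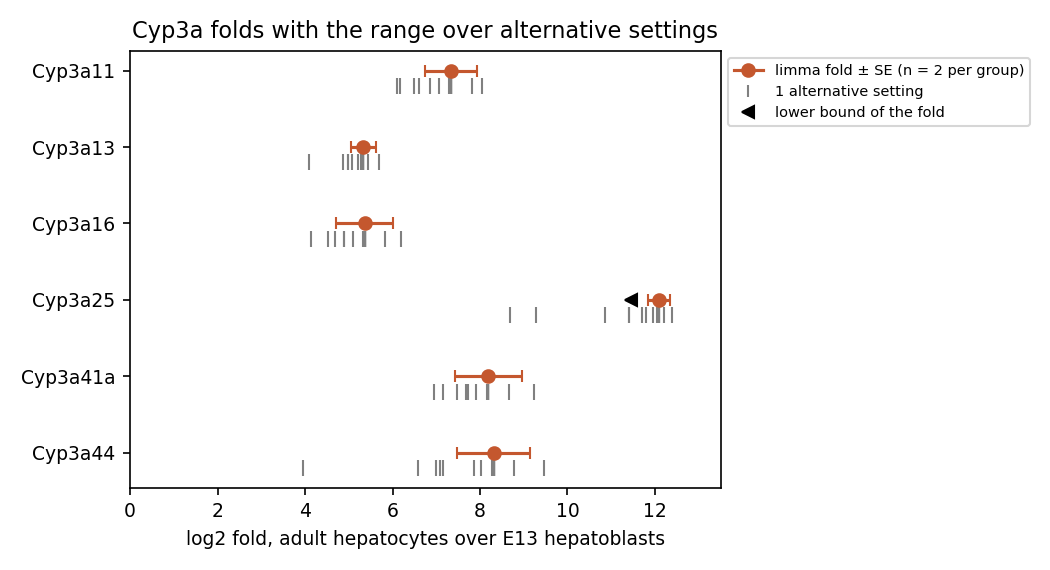
Log2 fold of adult hepatocytes over E13 hepatoblasts (horizontal axis) for the 6 members, orange points with the SE of limma (n = 2 per group), grey ticks for each alternative way of processing, and a black triangle for the lower bound of Cyp3a25. The lowest tick of any member is 3.96 (Cyp3a44 with both its probes averaged), and the highest is 12.39 (Cyp3a25).

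Several other ways of processing moved the size of these folds by over 1.5-fold without ending a call. Scaling to spike-in control probes, which put the median of all genes at -1.25, gave the lowest values of Cyp3a11 (6.10), Cyp3a13 (4.09), Cyp3a16 (4.13) and Cyp3a41a (6.96), and normexp background correction with quantile normalization gave 8.69 for Cyp3a25 and 6.58 for Cyp3a44.

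The members' folds were also set against each other within arrays, for the 5 members detected on all 4. Of the 10 pairs, Cyp3a13 and Cyp3a16 differed by -0.03 in log2 fold and Cyp3a41a and Cyp3a44 by -0.12. Larger differences separated Cyp3a11 from Cyp3a13 (2.00) and from Cyp3a16 (1.97), and Cyp3a44 exceeded Cyp3a13 by 2.98 and Cyp3a16 by 2.95. A two-sided exact permutation test of 2 arrays against 2 cannot give a p below 0.333, which adjusts to 0.417 over the 10 pairs, so no pair passed. The order of the folds beyond their SE is not shown by this test.

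The 2 E13 samples differed by more than the median gene for every member, and widely for 4 of them. E13 replicate 1 was the higher for all 6. The difference in log2 was 2.30 for Cyp3a44, or 4.93-fold, and as large a difference was seen in 0.213% of genes tested. For Cyp3a41a it was 2.07 (0.384% of genes), for Cyp3a16 1.67 (0.859%) and for Cyp3a11 1.43 (1.4%). The gap was 0.23 for Cyp3a13 (37.3%) and 0.26 for Cyp3a25 (33.6%), the latter between undetected signals. The second Cyp3a25 probe, also undetected at E13, had a wider gap of 0.94. The 4 members with the wide gap are those whose promoters were alike in the comparison above, and the Cyp3a11 probe also lists transcripts of Cyp3a41a and Cyp3a44, so these are not 4 independent readings. The median absolute difference between E13 samples over all genes tested was 0.166.

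Markers of other liver cells moved the same way between the E13 samples. Erythroid markers (8 genes) summed to 193 in E13 replicate 1 and 46.8 in replicate 2, with all 8 and 6 of 8 detected, and all 6 tested genes of the list were higher in replicate 1 (median difference 1.91). Endothelial markers (6 genes) summed to 1.36 and 0.447, and stellate and mesenchymal markers (7 genes) to 53.9 and 32.5. Macrophage markers (7 genes) summed to 0.825 and 0.479, while hepatocyte markers differed by a median of 0.06 and hepatoblast markers by -0.25. Among the hepatocyte markers 4 of 7 were higher in replicate 1, and Cps1, a urea cycle gene, was higher there by 1.57, within the range of those 4 Cyp3a members. Of the Y-linked genes Ddx3y read 0.96 and -0.07 and Kdm5d -1.99 and -3.01, again higher in replicate 1, while Xist, which is expressed from the inactive X of females, read 2.76 and 3.37. The part of other cells, or of the sex of the embryos, in the gap was not tested.

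**Figure D4:**
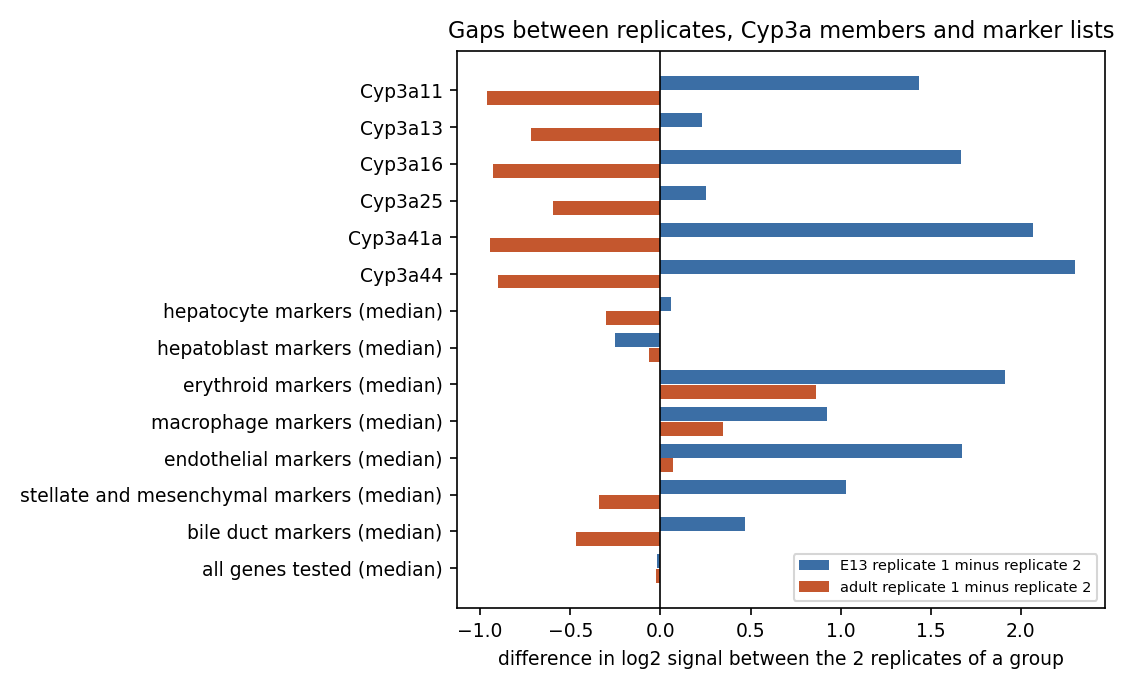
Difference in log2 signal between replicate 1 and replicate 2 (horizontal axis) within E13 (blue bars) and within adult samples (orange bars), for each Cyp3a member and as the median of each marker list and of all genes tested. Cyp3a11, Cyp3a16, Cyp3a41a and Cyp3a44 lie between 1.43 and 2.30 at E13, as erythroid and endothelial markers do (1.91 and 1.68), and all 6 members lie between -0.59 and -0.96 in the adult.

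In the adult, replicate 2 was the higher for all 6 members, by 1.51-fold for Cyp3a25 to 1.95-fold for Cyp3a11. In log2 the gaps ran from -0.59 to -0.96 (replicate 1 minus replicate 2), and gaps as large were seen in 5.69% to 14.8% of genes tested. The median absolute gap of all genes was 0.231. Por, the electron donor of all microsomal P450 enzymes, read 6.52 and 7.87 in the same samples, Alas1, the first enzyme of heme synthesis in liver, 5.22 and 6.68, and the PXR gene Nr1i2 1.45 and 2.52, so these 3 genes were also higher in adult replicate 2. Their gaps were wider than the medians of the lists below that hold them (-0.29 for regulators, -0.15 for electron donors and heme supply). Some genes of those lists went the other way, among them Nr0b2 (0.47) and Ppox (0.23). Erythroid markers summed to 28.8 and 21.4 and hepatocyte markers to 2351 and 2780. Alas2, at 4.69 and 4.34, was the brightest of the erythroid list in the adult. The globin genes differed more, with Hba-a1 at -0.20 and -2.71 and Hbb-b1 at 0.64 and -1.65. The tested erythroid genes were higher in adult replicate 1 by a median of 0.86, while Klf1 was lower there (-0.37). What these values have to do with the gap was not tested.

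For each member detected on all arrays, the gene profiles nearest to it over the 4 arrays were found among 12761 genes by the root mean square difference of log2 values centred on their own means, a description over 4 samples. Cyp3a41a and Cyp3a44 were each other's nearest gene, at 0.104. The probe A_51_P512519, which has no gene name, was next for both, at 0.227 and 0.248, followed by Cyp2a22 (0.410) for Cyp3a41a and Hp, which encodes haptoglobin (0.429), for Cyp3a44. The Cyp3a44 profile was that of its tested probe, while its second probe read -5.44 and -5.45 in the adult. Whether the tested Cyp3a44 probe also reads RNA of Cyp3a41a or Cyp3a41b was not tested. Nearest to Cyp3a11 were Uox, the urate oxidase gene (0.183), AW112010 (0.267) and Mbl2, which encodes a mannose-binding lectin (0.278). Cyp3a13 had its nearest profiles in 2310001H17Rik (0.0963), Cryl1 (0.106) and Prlr, the prolactin receptor gene (0.160). Those of Cyp3a16 were farther away, Hpgd at 0.288, S100a10 at 0.335 and Gpc4 at 0.348.

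Of 18 listed regulators of Cyp3a transcription, 17 were tested, and 10 were higher in the adult (against 32.1% of all genes tested). Another 2 were higher at E13 (against 32.8%) and 5 did not pass the test, with a median log2 fold of 0.82 over the list. The genes that rose most were Nr0b2, which encodes the corepressor SHP (6.17 ± 0.210, adjusted p = 9e-05, limma), the CAR gene Nr1i3 (4.56 ± 0.198) and the bile acid receptor gene Nr1h4 (4.09 ± 0.354). Nr1i3 read -2.15 and -2.45 at E13 and 2.11 and 2.41 in the adult, with no overlap. Ppargc1a, a coactivator gene, was the one furthest the other way (-1.58 ± 0.392, adjusted p = 0.0221). Without either E13 array that call was lost, at a log2 fold of -1.57 and -1.59. Its adult samples lay apart, at -0.04 and 1.06, and over all omissions of single arrays its log2 fold ran from -2.13 to -1.03.

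The PXR gene Nr1i2 did not share this pattern. It read 1.47 and 1.39 at E13 and 1.45 and 2.52 in the adult, so that the groups overlapped, and its log2 fold of 0.55 ± 0.381 had an adjusted p of 0.255 (limma). Without adult replicate 1 the log2 fold was 1.09 with an adjusted p of 0.0113 and was called, and without adult replicate 2 it was 0.02 with an adjusted p of 0.921. Scaling to spike-in probes turned it to -0.68. Under spike-in scaling the list held 6 genes higher in the adult and 6 higher at E13. The vitamin D receptor gene Vdr was not well above background on any array.

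Of 15 genes for electron donors and heme supply, 11 were higher in the adult (against 32.1% of all genes tested). Another 1 was higher at E13 (against 32.8%) and 3 did not pass, with a median log2 fold of 1.53 over the list. Por read 5.29 and 5.07 at E13 and 6.52 and 7.87 in the adult, a log2 fold of 2.01 ± 0.476 with an adjusted p of 0.0189 (limma). That call was lost under quantile normalization (adjusted p = 0.0543), spike-in scaling (0.15) and without E13 replicate 1 (0.0627) or E13 replicate 2 (0.0801), and the log2 fold was 2.69 without adult replicate 1 and 1.34 without adult replicate 2. The largest folds of the list were those of the cytochrome b5 gene Cyb5b (2.73 ± 0.214), Alas1 (2.63 ± 0.514) and Pgrmc1 (2.48 ± 0.173), a heme-binding P450 partner. Alas1 missed the threshold without E13 replicate 2 (adjusted p = 0.0518), and its log2 fold was 3.36 without adult replicate 1 and 1.90 without adult replicate 2. Ppox, for a late step of heme synthesis, was the gene higher at E13 (-0.66 ± 0.172, adjusted p = 0.0253), a call lost without either E13 array or adult replicate 2. Pgrmc2, a relative of Pgrmc1, did not pass (-0.02 ± 0.146, adjusted p = 0.934). Under spike-in scaling 6 genes of this list were higher in the adult and 4 at E13.

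Since Cyp3a16, Cyp3a41a and Cyp3a44 are known as female-predominant and the labels give no sex, genes known to differ between the sexes in adult mouse liver were examined. Of 14 female-biased genes, which do not include Cyp3a members, 9 were tested, 4 were higher in the adult (against 32.1% of all genes tested), 4 higher at E13 (against 32.8%) and 1 did not pass, with a median log2 fold of 0.68. Neither count stands far from the share over all genes. The genes higher in the adult were led by the P450 genes Cyp2a4 (9.76 ± 0.948, adjusted p = 0.00123, limma), Cyp2b9 (8.33 ± 0.760) and Cyp2b13 (7.09 ± 0.412). Cyp2a4 read -0.88 and -2.89 at E13 and 6.88 and 8.87 in the adult, higher in E13 replicate 1 and in adult replicate 2 as the Cyp3a members were, and its log2 fold ranged from 8.75 to 10.77 when single arrays were left out. For Cyp2b9 that range was 7.47 to 9.19. Cyp2a5, not on this list, read much like Cyp2a4, at -1.12 and -2.74 at E13 and 7.20 and 9.11 in the adult. Whether the Cyp2a4 probe also reads Cyp2a5 RNA was not tested. The Cyp2b13 probe was detected on 1 E13 array. With only probes detected on all arrays, another probe stood for this gene and gave a log2 fold of 1.03 (adjusted p = 0.29, not called), and the mean of its tested probes gave 4.06. Prom1, a membrane protein gene, was the one furthest the other way and was at least 18.8-fold higher at E13. Cyp17a1, for a steroid hydroxylase, did not pass (0.68 ± 0.243, adjusted p = 0.0642), but did so in 5 alternatives and turned to -0.56 under spike-in scaling. Sult3a1 and A1bg, which are also female-biased, were detected on no array.

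Of 16 male-biased genes, 14 were tested, and all 14 were higher in the adult (against 32.1% of all genes tested). Their median log2 fold was 8.23, or 7.34 with undetected genes at their bounds. Mup1, a major urinary protein gene, was at least 42238-fold higher in the adult, the fatty acid elongase gene Elovl3 at least 699.9-fold and Cyp4a12b at least 441-fold. This list was higher in adult replicate 1, by a median of 0.67, the opposite of the Cyp3a members. Elovl3, for example, read 5.66 and 4.03, and its fitted log2 fold was 10.80 without adult replicate 1 and 12.42 without adult replicate 2.

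Sex-linked transcripts were measured in the same samples. In the adult Ddx3y read 2.45 and 2.45, Eif2s3y 2.12 and 2.88, Kdm5d -0.97 and -0.86 and Uty -2.61 and -2.56, while Xist, at -5.55 and -5.53, was not well above background. Xist was at least 91.7-fold higher at E13 (adjusted p = 7.2e-05, limma). The 4 Y-linked genes were called higher in the adult, with log2 folds of 2.01 ± 0.371 (Ddx3y), 2.57 ± 0.496 (Eif2s3y), 1.58 ± 0.370 (Kdm5d) and 2.67 ± 0.436 (Uty). Without E13 replicate 1 or 2 the log2 fold was 3.18 or 1.96 for Eif2s3y and 3.29 or 2.05 for Uty. For Ddx3y the call was lost under spike-in scaling, and for Kdm5d there and without either adult array. Both E13 samples thus had detected Xist and Y-linked RNA, and the adult samples had detected Y-linked RNA with Xist not above background. Sex composition and stage cannot be told apart in these 2 groups, and the Cyp3a16, Cyp3a41a and Cyp3a44 signals of 4.40 to 8.25 were measured in the adult samples with this profile.

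Other hepatic P450 families also stood higher in the adult. Of 69 tested P450 genes, which include the 6 Cyp3a members, 61 were called higher in the adult (88.4%, against 32.1% of all genes tested). A further 3 were higher at E13 (against 32.8%) and 5 did not pass, with a median log2 fold of 5.33 over the 69. The Cyp2c subfamily had 10 of 10 tested genes higher (median 4.54, or 3.81 with bounds), the Cyp2a and Cyp2b subfamilies 7 of 8 (median 7.94, or 7.69 with bounds), and Cyp1a2 with the Cyp2d, Cyp2e1 and Cyp2f2 genes 10 of 10 (median 4.72). The Cyp3a median of 7.76 thus lay near that of Cyp2a and Cyp2b and above the other medians, though the ranges overlapped and no test between the families was made. Between E13 samples the median gap was 1.55 for Cyp3a, 0.88 for Cyp2a and Cyp2b, 0.52 for the Cyp1a2 group and 0.16 for Cyp2c.

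**Figure D5:**
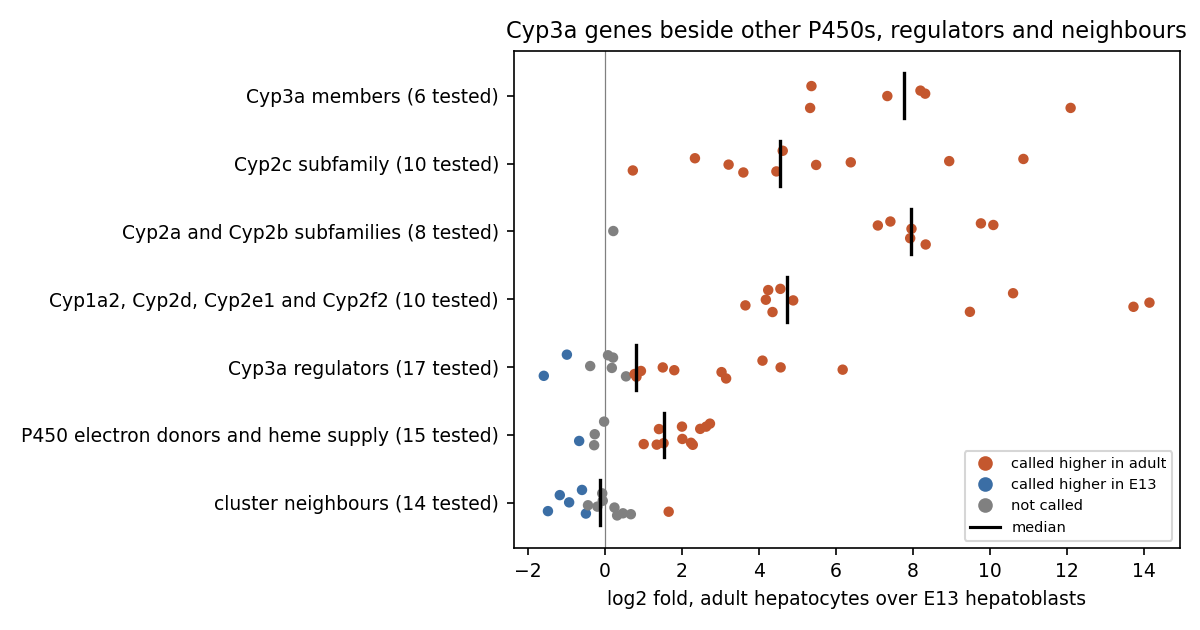
Log2 fold of adult hepatocytes over E13 hepatoblasts (horizontal axis) for each tested gene of 7 lists, coloured by whether limma called it higher in the adult, higher at E13 or neither, with a black bar at the median of each list. The Cyp3a genes lie between 5.33 and 12.09, and the 14 neighbours of the cluster between -1.47 and 1.66.

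The genes that lie beside the Cyp3a cluster did not share its shift. Of 20 genes with a probe within 500 kb of the span of the cluster probes, 14 were tested, 1 was higher in the adult (32.1% of all genes tested were), 5 were higher at E13 (32.8% of all genes were, near the share of the neighbours) and 8 did not pass, with a median log2 fold of -0.13. Zkscan14, a zinc finger gene, was the gene higher in the adult (1.66 ± 0.224, adjusted p = 0.00334, limma). Those higher at E13 were Arpc1b, for a subunit of the actin-nucleating Arp2/3 complex (-1.47 ± 0.196), the unnamed probe A_52_P419879 (-1.16 ± 0.147), the Mediator kinase gene Cdk8 (-0.92 ± 0.165), Ptcd1 (-0.59 ± 0.178) and the polyadenylation factor gene Cpsf4 (-0.49 ± 0.153). The calls of Ptcd1, Cpsf4 and Cdk8 were lost without E13 replicate 1, and normexp gave -0.17 for A_52_P419879, which was then not called. The folds of all 14 lay below the lowest Cyp3a fold of 5.33. The count higher at E13 was 2 without E13 replicate 1 and 3 without E13 replicate 2 or adult replicate 1, and the count higher in the adult was 3 without adult replicate 1. Under spike-in scaling 12 neighbours were called higher at E13 and 0 higher in the adult.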

How the data were processed

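Per the file headers, the authors' scans of the 4 arrays, which shared a slide and a scan time, were read by Agilent Feature Extraction 10.7.3.1. It made the processed signal intensity by subtracting background within each array, with no scaling between arrays, and marked spots as well above background, saturated or outliers. The deposited log2 values equalled the log2 of these intensities minus a constant close to the log2 of the 75th percentile (r = 1 on each array), with medians of -3.60, -3.53, -3.51 and -3.71. Direction and scale follow from that match, and the step itself is not given in the sources used here.

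From the intensities, log2 signals were averaged over spots of a probe and the 75th percentile of the array was subtracted. The 1639 control spots and 18 probes with an outlier mark were left out, and no probe was saturated. Probes marked well above background on both arrays of a group, or of both groups, were tested, and the brightest of these stood for its gene (16422 of 30038 gene names). Groups, taken from the labels' cell type, were compared with lmFit and eBayes of limma 3.58.1 in R 4.3.3, with Benjamini-Hochberg adjustment over all genes, and the script was tested on simulated data. For a probe that neither array of a group showed well above background, "at least" folds set the brighter mean against the mean of, per array, the lowest detected value or its own, whichever was higher. Promoters were aligned with Biopython 1.88.

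The members and gene lists were chosen with earlier results of these data known. Named from each list were the 3 called genes with the largest fold in its more frequent direction, the 1 furthest in the opposite direction and the first 2 in list order that were not called, all sex-linked genes, all called neighbours, Nr1i2 and Por, and the 3 nearest profiles of each member. Some genes chosen by this rule are left out of the text. Vdr, Sult3a1 and A1bg are named as listed genes that were not tested. The alternatives tried were normexp (offset 50), quantile normalization, both together, scaling to detected probes or to 8 spike-in probes, the deposited log2 values, a stricter and no filter on dim signal, averaged probes, robust eBayes with a trend, a fold of at least 2, leaving out each array and a replicate block.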

Additional observations from a re-analysis of the deposited data

How the results depend on the processing

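All 6 members stayed called and higher in the adult under each alternative run, except that 5 were called where only probes well above background on all arrays were kept, a setting in which Cyp3a25 has no value. Adjusted p-values of the members (limma) reached at most 0.0148, for Cyp3a16. Leaving out single arrays gave log2 folds of 6.62 to 8.05 for Cyp3a11, 4.97 to 5.69 for Cyp3a13, 4.53 to 6.20 for Cyp3a16, 11.79 to 12.39 for Cyp3a25, 7.16 to 9.23 for Cyp3a41a and 7.16 to 9.47 for Cyp3a44. The number of genes called, 10647, was 7873 to 10156 without single arrays, 20102 with no filter on dim probes (72.7% higher in the adult, against 49.5%), and 20519 with the mean of all probes and no filter (73.7%). The share higher in the adult was 15.1% under spike-in scaling and 59.5% under normexp. Over the genes tested, deviations from the group mean correlated at -0.156 between E13 and adult samples of the same replicate number. A single correlation across genes cannot decide whether samples of the same replicate number were prepared together, and the labels do not say. A replicate block gave 6 members and 9535 genes called and 3 neighbours higher at E13 in place of 5, and a crossed replicate block, added after the data had been seen, gave 6 members, 10768 genes and 3 neighbours.

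List counts that moved by over 1.5 times were these. Regulators higher at E13 (2) were 4 under normexp with quantile, 6 under spike-in scaling and 1 to 3 without single arrays, and those higher in the adult (10) were 6 under spike-in scaling. Electron donors and heme genes higher at E13 (1) were 2 under quantile, 2 under normexp with quantile, 4 under spike-in scaling and 0 to 1 without single arrays, and those higher in the adult (11) were 6 under spike-in scaling. Neighbours higher in the adult (1) were 2 under normexp with quantile, 2 with probes detected on all arrays, 2 with trend and robust eBayes, 5 with no filter, 6 with the mean of all probes, 0 under spike-in scaling and 1 to 3 without single arrays. Neighbours higher at E13 (5) were 12 under spike-in scaling, 3 with no filter and 2 to 5 without single arrays. Female-biased genes higher in the adult (4) were 7 with no filter, 7 with the mean of all probes and 2 with probes detected on all arrays, where the count higher at E13 (4) was 0 and the male-biased count (14) was 8, since fewer genes were tested there. Signs turned for Nr1i2 (-0.68) and Cyp17a1 (-0.56) under spike-in scaling and for Pgrmc2 with the mean of tested probes (0.16), the mean of all probes (0.16) and on leaving out single arrays (-0.080 to 0.050). Apart from fewer genes being tested, the cause of these changes was not tested. Signals near background gave only bounds.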
